A study of Mus musculus with 36 samples.

Results

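The CTCF sites described here were absent from the peak list of day 0 of a mouse embryonic stem cell time course and present in those of both day 4 and day 6. The 4 CTCF peak lists were merged into sites wherever peaks overlapped by 1 bp or more on chromosomes 1 to 19, X and Y. Sites with no day 0 peak and with peaks on days 4 and 6 were kept, whether or not day 2 had a peak, which gave 1578 gained sites of 53682 merged sites. The CTCF calls of days 0, 4 and 6 chose these sites, so their CTCF values on those days are a description, while the day 2 calls, the MBD3 peaks and the genomic position were not used in choosing them. Absence on day 0 means that no peak was called, and the CTCF signal under the calling threshold on day 0 was not analysed here.

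Chromatin immunoprecipitation sequencing (ChIP-seq) of mouse embryonic stem cells gave 36 samples, with 3 replicates of each of 12 groups, namely the CTCF and MBD3 precipitates and the input of days 0, 2, 4 and 6. The cells were kept with leukaemia inhibitory factor on irradiated mouse embryonic fibroblast feeders, whose chromatin was not told apart from that of the stem cells. The labels name no treatment between the days and no allele, and wild type appears only in the names of the peak lists. The authors pooled the 3 replicates of a group before calling peaks, so each group is 1 list with no spread between replicates, and differences are given without a p-value. No expression was measured, so the cell type could not be checked against markers.

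CTCF is a zinc finger protein that binds a long, partly fixed DNA motif, marks insulators and stops the loop extrusion of cohesin, and at part of its sites its binding is blocked by methylation of CpGs in the motif. MBD3 is a subunit of NuRD, a complex that joins nucleosome remodelling with histone deacetylation. NuRD acts at enhancers and promoters in embryonic stem cells, where it is known for its part in leaving the pluripotent state.

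Few gained sites overlapped a promoter window. RefSeq promoter windows of GRCm38.p6, the assembly of mm10, run from 250 bases before to 50 bases after a transcript's start. Those of 9 genes overlapped one of the 1578 gained sites. The 2085 sites of day 6 only overlapped those of 28 genes, and the 25409 sites of all 4 days those of 1758. The day 6 summit of the gained site lay inside the window for 7 of the 9 genes. The 4 sequences below hold a match with at most 1 mismatch to the core CTCF motif (CCANNAG followed at once by NNGGC, with N for any base), on either strand, beside that summit. The other 3, of Gm33083, Gm31983 and P3h1, held none there and are not printed. Each runs 5′ to 3′ on the strand of its gene and covers up to 50 bases on either side of the summit. Each ends before the transcript's start, with the match in capitals.

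8430419K02Rik: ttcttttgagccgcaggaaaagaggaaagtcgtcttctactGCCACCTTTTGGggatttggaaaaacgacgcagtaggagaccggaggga
Gm40221: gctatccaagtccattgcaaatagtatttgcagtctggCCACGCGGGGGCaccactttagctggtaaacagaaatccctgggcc
Gm33487: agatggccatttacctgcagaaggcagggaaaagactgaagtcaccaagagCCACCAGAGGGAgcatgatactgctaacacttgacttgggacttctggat
Uba1: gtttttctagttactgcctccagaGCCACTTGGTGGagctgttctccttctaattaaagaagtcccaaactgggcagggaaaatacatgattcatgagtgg

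The 8430419K02Rik stretch (chr11:18877603-18877692, minus strand) held the motif exactly, centred 3 bp from the summit. The other 3 held it with 1 mismatch in its 8 fixed letters, centred 6 bp from the summit for Gm40221 (chr4:107937387-107937470, plus strand), 7 bp for Gm33487 (chr12:72432360-72432460, minus strand) and 20 bp for Uba1 (chrX:20662755-20662855, plus strand). An exact match lay in the promoter windows of 1 of the 9 genes (11.1%, 95% interval 0.281 to 48.2%) and of 226 of 1758 genes whose windows overlapped a site of all 4 days (12.9%), against 2.82% of 26994 genes with a window in the table. With 1 mismatch allowed, the counts were 5 of the 9 genes (55.6%, 21.2 to 86.3%) and 1057 of the 1758 (60.1%), against 33.5% of all. Both intervals of the 9 genes hold the share of all genes. The windows over gained sites held a median of 10 CpGs, those over sites of all 4 days 22 and all windows 7. The Uba1 site lay inside the gene of the main ubiquitin-activating enzyme, 4503 bp from the nearer gene end, so its window stands at a transcript start within the gene. This site had CTCF folds of 6.48 on day 4 and 10.8 on day 6 and an MBD3 peak of fold 2.74 on day 6. Fold here is the authors' fold enrichment, the fragments over a peak's summit against the expected background. At sites outside promoter windows no sequence was read, since no genome was used here.

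Most gained sites were weak CTCF sites. Their folds ran from 1.35 to 17.2 on day 4, with a median of 5.66, and from 1.44 to 19.4 on day 6, with a median of 5.81. Sites present on all 4 days had medians of 10.4 on day 4 and 11.2 on day 6, and sites found on day 6 only had a median of 4.57. A gained site thus lay between these classes by its median, and 10.8% of gained sites were above the median of the whole day 4 list and 11.7% above that of day 6. In fragments over the summit, pooled over 3 replicates, the gained sites had a median of 22 on day 4 and 24 on day 6, against 71 and 82 at sites of all 4 days. On both days 553 gained sites (35.0%) had a -log10 q of 10 or more.

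**Figure D1:**
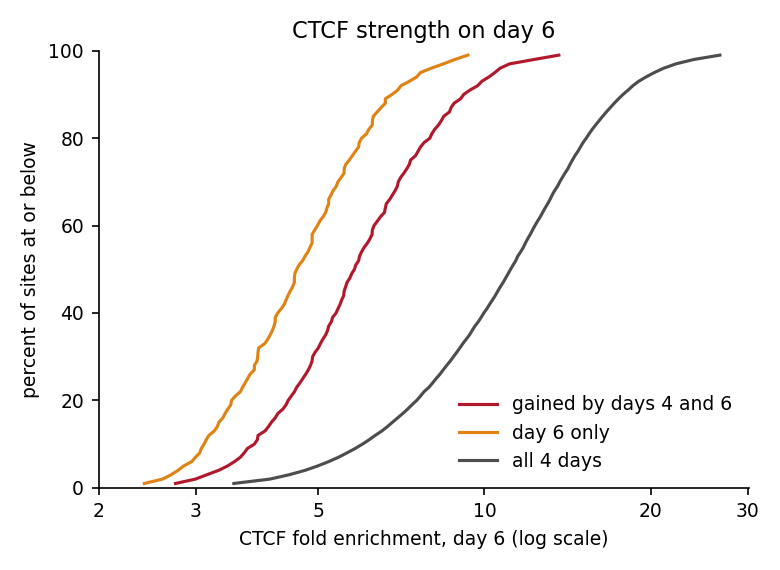
Cumulative share of sites (vertical axis, percent) by CTCF fold enrichment on day 6 (horizontal axis, log scale) for gained sites, sites found on day 6 only and sites of all 4 days. The curve of the gained sites, with a median of 5.81, runs close to that of day 6 only (4.57) and left of that of all 4 days (11.2).

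The lists differed in the background against which peaks were called, so a peak of the same fold could be called on one day and not on another. The genome-wide background at a summit was lower on the later days, with 1.83 fragments (day 4) and 1.87 (day 6) against 2.87 (day 0) and 2.67 (day 2). At that background the weakest peaks called had folds of 3.16 (day 4) and 3.13 (day 6), against 2.83 (day 0) and 3.00 (day 2). Since the gained sites were chosen by calls on days 4 and 6, their folds say nothing of how near to a call they were on day 0, which was not tested. The share of all day 6 sites that was gained lay between 7.12% and 9.24% in the 3 lowest deciles of day 6 fold, and it was 0.105% in the highest.

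At the edge of the rule, the gained sites of lowest -log10 q were near Npvf, a neuropeptide gene, with 1.32 on day 4, near Pax3 with 1.33 on day 6, and in Cdc42se2 with 1.35 on day 6. Just outside it, a site in the lncRNA gene Gm46361 had folds of 6.76 on day 4 and 7.16 on day 6 but also a day 0 peak of fold 2.27 with a -log10 q of 1.43. A site in Myof, a gene of membrane repair, had a fold of 14.1 on day 6 and none called on day 4.

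Day 4 and day 6 gave close but not equal folds. The ratio of the day 6 fold to the day 4 fold had a median of 1.03 at gained sites and 1.06 at sites of all 4 days, and it was above 1 at 849 gained sites (53.8%) and at 58.1% of sites of all 4 days. Across the 1578 gained sites the 2 days' folds had a Spearman correlation of 0.51, against 0.69 across 25409 sites of all 4 days. The sites of each correlation come from the same pair of lists, and sites are not replicates. The summits of both days lay a median of 12 bp apart at gained sites and 7 bp at sites of all 4 days.

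**Figure D2:**
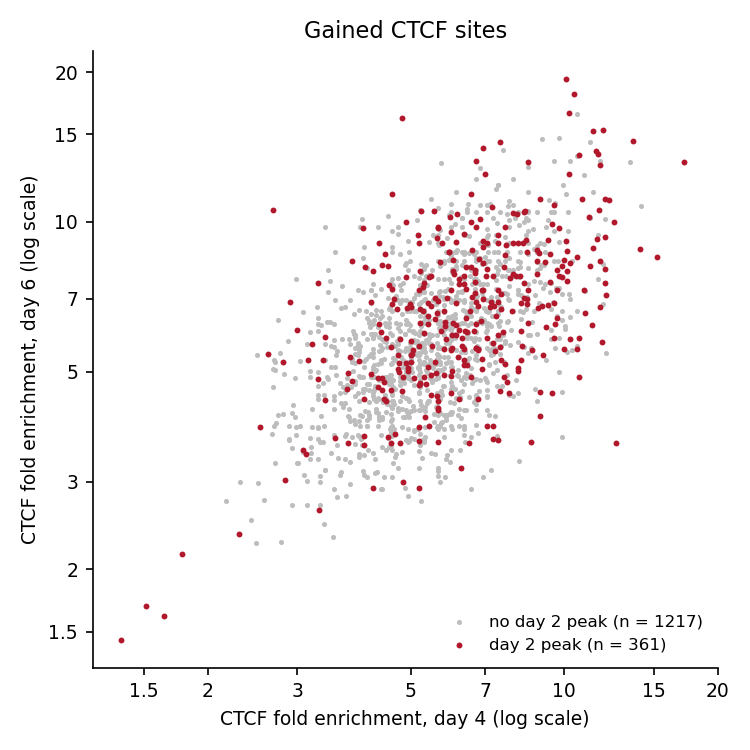
CTCF fold enrichment of each gained site on day 4 (horizontal axis) and day 6 (vertical axis), both on log scales, with sites that also had a day 2 peak in red and the rest in grey. The red sites have the higher medians (6.42 on day 4 and 6.69 on day 6, against 5.50 and 5.62 for the grey).

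Of the 1578 gained sites, 361 already had a CTCF peak on day 2 (22.9%, exact 95% interval 20.8 to 25.0%), against 52.1% of all merged sites. Of the sites called on days 0, 4 and 6, 80.6% had one. Day 2 had the shortest CTCF list, with 28137 peaks against 36787 to 47414 on the other days. The gained sites with a day 2 peak had median folds of 4.63 on day 2, 6.42 on day 4 and 6.69 on day 6, and those without had 5.50 on day 4 and 5.62 on day 6. The gained sites with a day 2 peak thus had the higher medians on days 4 and 6, whose calls chose the sites. The day 2 list also had the lowest median fold of the CTCF lists, 5.46 against 6.67 to 8.91. Whether a day 2 peak tells of timing or of the easier detection of strong sites was not tested.

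The day 2 share of gained sites was also lower than that of sites with a day 0 peak at like CTCF strength. In the fifth decile of day 6 fold it was 32.8% of 177 gained sites against 78.5% of sites called on days 0, 4 and 6, and it was lower in each of the 10 deciles. Weighted to the gained sites' deciles of day 6 fold, the share of those other sites came to 59.9%, and weighted to deciles of the day 6 -log10 q it came to 46.6%, both above the 22.9% of the gained sites. The -log10 q, the peak caller's score, follows the number of fragments as well as the fold. A site called on day 0 and not gained is defined by a further list, and how far that alone sets the gap was not tested. When every list was shortened to its 28137 peaks of highest -log10 q, 2316 sites were gained, of which 297 were among the 1578, and 59.4% of them had a day 2 peak.

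The 12 strongest gained sites on day 6 lay inside genes (6 sites) or at least 8113 bp from the nearest protein-coding gene (6 sites). At chr4:143238608-143239146, 26165 bp from the nearer end of Prdm2, a zinc finger methyltransferase gene, the fold was 4.72 on day 2, 10.1 on day 4 and 19.4 on day 6, with 32, 56 and 102 fragments. In Rabgap1l, which encodes a Rab GTPase-activating protein, a site at chr1:160377686-160377961 had 5.45, 10.4 and 18.1. A site in Sel1l3 had 5.78, 10.2 and 16.6. In these 3 sites each later day had the higher fold. The sites were ranked by day 6 fold, which favours sites higher on that day. Of all gained sites, 53.8% had a higher fold on day 6 than on day 4. A site whose nearest gene was N6amt1, a methyltransferase gene 709177 bp away, had 5.72 on day 2, 4.80 on day 4 and 16.2 on day 6. The lowest fold was on day 4, but the fragments were 20, 22 and 53 on these days.

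Others of the strongest sites had no day 2 peak. A site in Aph1b, which encodes a subunit of gamma-secretase, had folds of 10.6 on day 4 and 16.4 on day 6 (chr9:66787840-66788195). A site in the alpha-kinase gene Alpk2 had 9.77 and 14.7, and one near Rab27b, a GTPase gene of vesicle secretion, had 11.2 and 14.5. Each was higher on day 6 than on day 4, a direction that ranking by day 6 fold favours. Cdca2, whose product targets a phosphatase to mitotic chromosomes, had a gained site inside it with 10.6 and 13.6 and another 52192 bp from its end with 7.48 on day 4, 14.5 on day 6 and 4.36 on day 2. Near Gbp2, an interferon-induced GTPase gene, 2 gained sites lay on chromosome 3. Their folds, but not their fragments, moved in opposite directions between days 4 and 6. The site inside the gene, 697 bp from an end, had folds of 14.1 on day 4 and 10.7 on day 6. The site 8113 bp outside had 11.4 and 15.2 after 6.95 on day 2. The fragments on days 4 and 6 were 56 and 59 at the inner site and 40 and 44 at the outer.

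MBD3 peaks were rare at gained sites. At day 0 they overlapped 7 gained sites (0.444%) and at day 2 they overlapped 8 (0.507%). The number was 21 at day 4 (1.33%, 95% interval 0.826 to 2.03%) and 39 at day 6 (2.47%, 1.76 to 3.36%). Over all merged sites the shares on days 0, 2, 4 and 6 were 17.2%, 2.14%, 14.7% and 18.7%. Sites of all 4 days stood at 32.6%, 3.50%, 28.9% and 38.0% on these days, and sites of day 6 only at 0.671% on day 6. In all, 53 gained sites (3.36%) had an MBD3 peak on some day. The share was 29.3% of all merged sites, 55.1% of sites of all 4 days and 0.911% of sites of day 6 only. Of the gained sites, 43 had one on day 4 or 6 and none on days 0 and 2, a pattern whose share at other sites is not given here. The MBD3 list of day 2 was also the shortest, with 1991 peaks against 9006 to 10875.

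The gained sites' low MBD3 share went with their low CTCF strength, and how it compared with other sites turned on the measure of strength. At the same day 6 fold, gained sites had the lower MBD3 share in 9 of the 10 deciles, as with 3.03% of 99 gained sites in the sixth decile against 21.3% of sites of all 4 days. In the lowest decile the gained sites had 3.73% against 2.65%, and 1.54% without the high-background sites described below. Weighted to the gained sites' deciles of fold, the share at sites of all 4 days was 7.70% on day 6, against the gained sites' 2.47%. But at a given fold the gained sites had fewer fragments, a median of 32 against 69 in the sixth decile. Weighted instead to deciles of the day 6 -log10 q, the share at sites of all 4 days was 2.77%, inside the interval of the gained sites. On day 4 the corresponding values were 1.33% at gained sites against 9.52% by fold and 2.85% by -log10 q, the last above the upper bound of 2.03%. Under the other settings tried, the gained sites' share lay between 0.127% and 4.21% on day 0, between 0.951% and 5.67% on day 4 and between 2.03% and 7.13% on day 6. The highest day 0 shares, 4.05% and 4.21%, came from counting peaks as shared by summits within 100 bp and from leaving out high-background peaks, settings under which a site with a day 0 CTCF peak can count as gained.

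**Figure D3:**
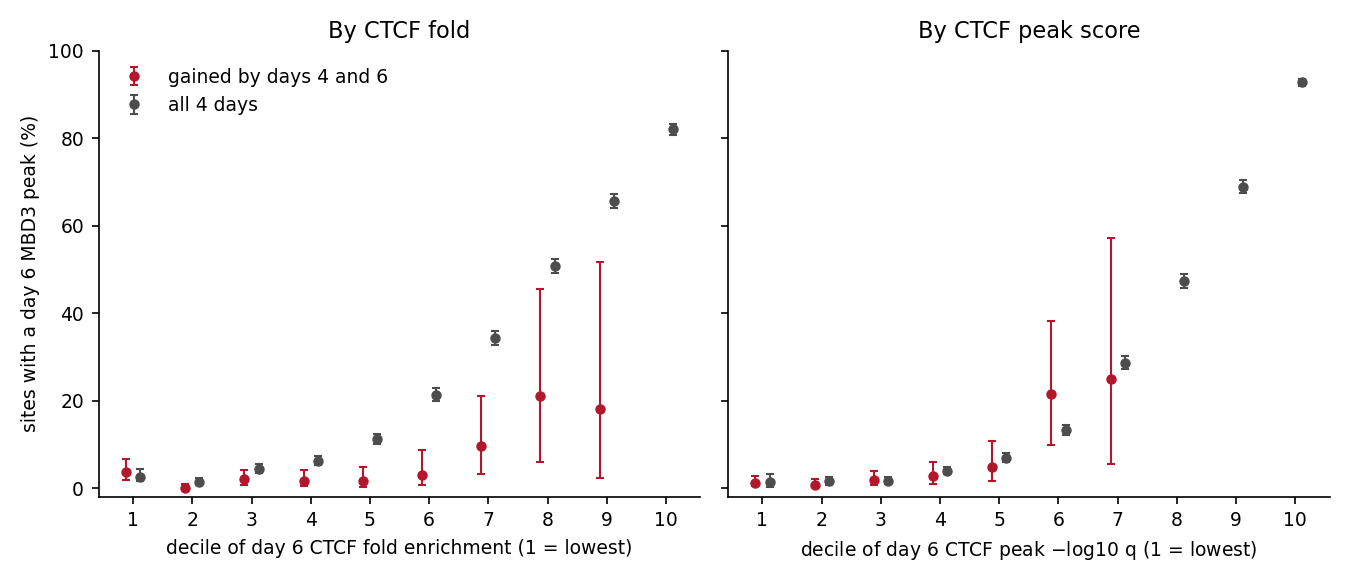
Share of sites with an MBD3 peak on day 6 (vertical axis, percent, with exact 95% intervals) in deciles of the day 6 CTCF fold (left) and of the day 6 CTCF -log10 q (right), for gained sites and sites of all 4 days, where a decile holds at least 10 sites. By fold the gained sites lie below from the second decile on, as in the sixth with 3.03% against 21.3%, and by -log10 q the intervals of both classes overlap in each decile drawn.

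Where MBD3 was called, its median fold at gained sites was near that at sites of all 4 days. On day 6 it was 4.41 at 39 gained sites and 4.57 at sites of all 4 days. On day 4 it was 4.09 at 21 gained sites and 3.95 at sites of all 4 days. These gained sites include the high-background ones described below. Only called peaks enter the medians, and at the background level the weakest called had folds of 3.74 (day 6) and 3.41 (day 4). How far this sets the likeness of the medians was not tested. The summits of MBD3 and CTCF lay a median of 25 bp apart on day 6 at gained sites and 9 bp at sites of all 4 days. Gained sites with MBD3 on day 6 had a median CTCF fold of 7.31 against 5.81 at those without. Carry-over of one protein's chromatin into the other's libraries was not tested.

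The highest MBD3 fold at a gained site, 32.1, was on day 2 in the pseudogene Gm6560 (chr5:22724355-22724620), where MBD3 had 3.33 on day 4 and no peak on day 6, a site named after its values were seen. The other sites here are among those of highest MBD3 fold on day 6. In the pseudogene Gm10076 (chr14:105681824-105682062), where CTCF had folds of 4.50 on day 4 and 5.59 on day 6, MBD3 had folds of 12.0 on day 2, 7.58 on day 4 and 8.98 on day 6, and reads of pseudogenes can be shared with near-identical copies. In Ptprt, a receptor tyrosine phosphatase gene, MBD3 had 8.74 on day 4 and 8.48 on day 6 beside CTCF folds of 4.58 and 4.11. At Gm10076 and Ptprt, the MBD3 fold was above the CTCF fold of the day, though the lists of the antibodies differ in background. A site in Phldb2 (chr16:45939480-45939763), whose product anchors microtubules at the cell cortex, had an MBD3 fold of 6.69 on day 6 after CTCF folds of 8.18 on day 2, 13.6 on day 4 and 14.5 on day 6. A site in Tgfbr1, the type I TGF-beta receptor gene, had 5.99 for MBD3 on day 6 beside 13.6 for CTCF. Near Foxb1, a forkhead transcription factor gene, MBD3 had 5.81 and CTCF 12.9. The last 3 sites had MBD3 called on day 6 alone.

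A few gained sites lay where the local background was over 10 times the level of the list. Of these 8, 5 lay within 32016 bp at chr9:3000933-3032948, 302536 bp or more from the nearest protein-coding gene, Alkbh8. They had CTCF folds of 1.35 to 2.59 on days 2, 4 and 6, with 100 to 2355 fragments, and MBD3 peaks on all 4 days. Without the 8 sites the MBD3 counts of days 0, 2, 4 and 6 were 2, 3, 16 and 33 of 1570, or 0.127%, 0.191%, 1.02% and 2.10%. So 5 of the 7 gained sites with MBD3 on day 0 were in this one stretch of chromosome 9.

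Gained sites lay farther from the ends of protein-coding genes, and had fewer such genes around them, than sites of all 4 days by their medians. Within 1 kb of an end of a protein-coding gene were 56 of them (3.55%, 95% interval 2.69 to 4.58%), against 14.1% of all merged sites, 11.4% of sites of all 4 days, 4.27% of sites of day 6 only and 28.4% of sites of day 0 only. Weighted to the gained sites' deciles, the share at sites of all 4 days was 17.5% by day 6 fold and 8.82% by -log10 q. The median distance to the nearest such end was 33246 bp at gained sites, against 24938 bp at sites of day 6 only and 13139 bp at sites of all 4 days. The gained sites thus stood nearer to the sites of day 6 only than to those of all 4 days in these measures. Inside a gene of any kind lay 55.5% of gained sites (53.0 to 58.0%), against 59.9% of all merged sites. The table of genes gives no strand or exons, so a start could not be told from an end, nor an exon from an intron.

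A gained site had a median of 7 protein-coding genes within 500 kb, against 8 at sites of day 6 only and 11 at sites of all 4 days. The share of merged sites that was gained was 5.73% where 0 to 2 genes lay that near, 4.35% with 3 to 5 genes, 3.13% with 6 to 10, 2.25% with 11 to 20 and 1.38% with 21 or more. It was lower in each denser class, and the intervals of neighbouring classes did not overlap. Of the gained sites 41.2% had 5 or fewer such genes near, against 23.6% of sites of all 4 days, or 30.5% when these were weighted to the gained sites' deciles of -log10 q.

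By chromosome, X had the highest share, with 72 of its 1360 merged sites gained (5.29%, 95% interval 4.17 to 6.62%). Chromosomes 6 (4.19%) and 1 (4.11%) followed, and their intervals overlapped that of X. Chromosome 11, with 1.83% (1.42 to 2.31%), was the lowest with any. On Y, 0 of 46 sites were gained, which is compatible with a share of up to 7.71% by the exact interval. Of the gained sites 4.56% (3.59 to 5.71%) lay on X, against 4.32% of sites of day 6 only (3.49 to 5.28%) and 2.06% of sites of all 4 days, or 3.45% when the last were weighted to the gained sites' deciles of -log10 q. The intervals of the gained sites and of day 6 only overlapped.

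**Figure D4:**
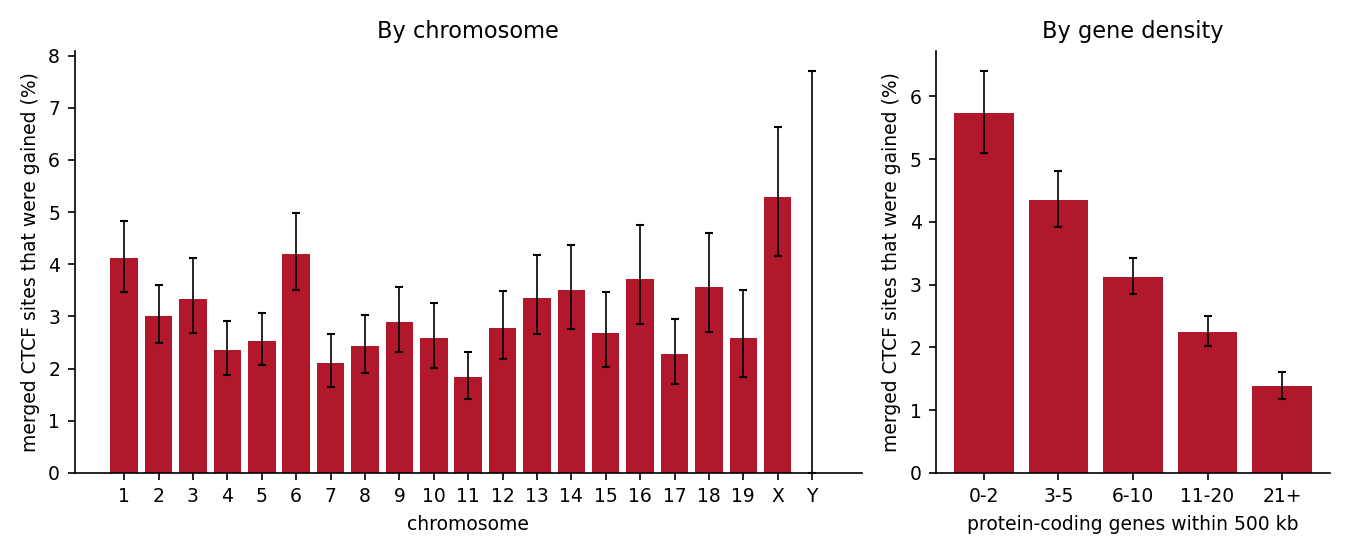
Share of merged CTCF sites that was gained (vertical axes, percent, bars with exact 95% intervals) by chromosome (left) and by the number of protein-coding genes within 500 kb (right). X is highest with 5.29% and chromosome 11 lowest of those with any at 1.83%, and the share is 5.73% in the most gene-poor class and 1.38% in the most gene-dense.

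By the rule no gained site overlapped a day 0 peak, so some distance from older CTCF sites was set in advance. The nearest day 0 peak was a median of 18531 bp from a gained site, against 14845 bp from a site of day 6 only. Of the gained sites, 61 lay within 1 kb of a day 0 peak, 566 within 10 kb and 184 more than 100 kb from any. The nearest site of all 4 days was a median of 30517 bp from a gained site, against 28114 bp from a site of day 6 only and 15898 bp between sites of all 4 days. Another gained site lay within 50 kb of 151 gained sites, and how many random spacing would give was not tested. Beside the stretch on chromosome 9, groups of 3 lay at chr5:15461646-15508710, with day 6 folds of 3.73 to 6.78, and in and beside Lmnb1, the gene of lamin B1, with day 6 folds of 3.41 to 4.70.

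Gained sites were found in a larger share of long genes than of short ones, as were merged CTCF sites of any kind. The latter lay in 22.1% of genes of up to 10 kb and in 96.9% of those over 500 kb. A gained site lay in 0.164% of genes of up to 10 kb, 1.67% of those of 10 to 50 kb, 7.03% of those of 50 to 200 kb, 16.9% of those of 200 to 500 kb and 40.1% of the 227 longer ones. Of the CTCF sites in these genes, the share that was gained was 0.611%, 1.69%, 2.74%, 3.40% and 5.64% from the shortest class to the longest. In all, 662 protein-coding genes held a gained site and 62 held at least 2.

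**Figure D5:**
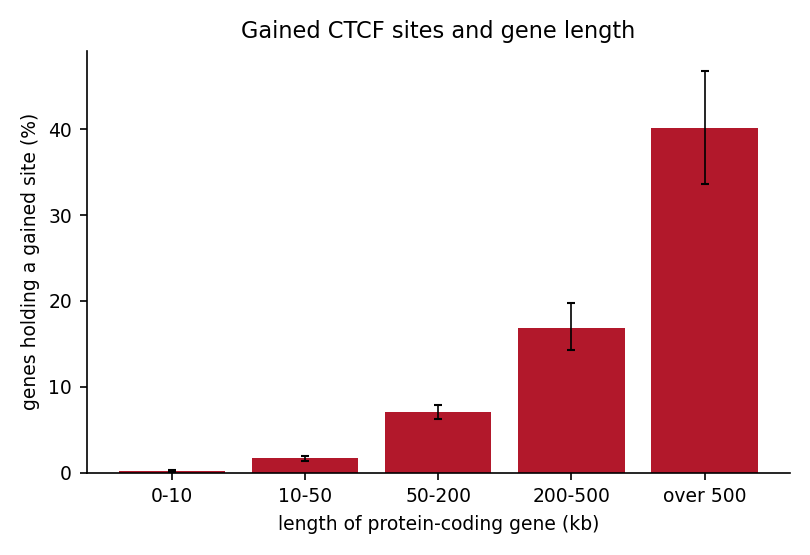
Share of protein-coding genes that hold a gained CTCF site (vertical axis, percent, bars with exact 95% intervals) by gene length (horizontal axis, kb). The share goes up with each length class, from 0.164% of genes of up to 10 kb to 40.1% of genes over 500 kb. The share of genes with any merged CTCF site, not drawn, goes up from 22.1% to 96.9%.

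The 8 genes with at least 3 gained sites, picked after their values were seen, were all over 500 kb long. Rabgap1l, Nrxn3 and Csmd1 had 4 each, of 16, 20 and 18 merged CTCF sites. Mecom, Erc2, Celf2, Prkg1 and Gpc5 had 3 each, of 12, 17, 9, 15 and 11. Of all merged CTCF sites in genes over 500 kb, 5.64% were gained. Nrxn3 encodes a presynaptic adhesion protein, and its sites had folds between 4.60 and 8.04 on day 4 and between 3.07 and 7.77 on day 6. Mecom encodes the transcription factor EVI1, and its strongest site (chr3:30269282-30269595) had 6.27 on day 2, 10.3 on day 4 and 8.28 on day 6. Prkg1 encodes a cGMP-dependent protein kinase, and a site there had 5.59 on day 2, 12.0 on day 4 and 7.52 on day 6. Gpc5 encodes a glypican of the cell surface, and its 3 sites had 6.37 to 8.71 on day 4 and 7.66 to 9.40 on day 6, with no day 2 peak at any of them.

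Genes of synapses and axon guidance stood out by count. Of 34 such genes, 14 had a gained site inside or within 5 kb (41.2%, 95% interval 24.6 to 59.3%), against 3.72% of all protein-coding genes. These genes are long, with a median of 966 kb against 17.2 kb. Among genes over 500 kb the counts were 12 of 23 on the list (52.2%, 30.6 to 73.2%), and the 40.1% of all genes of that length lay inside this interval. The strongest site of the list was in Dscam, which encodes an adhesion protein of neurons, with 7.51 on day 2, 11.2 on day 4 and 10.2 on day 6 and an MBD3 peak of 4.24 on day 4. Grin2b, which encodes an NMDA receptor subunit, held 2 sites, one with 6.85 on day 4 and 4.80 on day 6 and the other with 9.92 and 3.68. Both folds were lower on day 6 than on day 4. The fragments were 20 on both days at the first site, and 31 on day 4 and 18 on day 6 at the second.

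The lists of cell identity genes were too short to set their shares apart from the 3.72% of all protein-coding genes. No gained site lay in or within 5 kb of any of 22 genes of core and naive pluripotency, 13 of formative and primed pluripotency, 12 of trophoblast, 39 Hox genes, 58 clustered protocadherin genes, 15 NuRD genes or 18 DNA methylation genes. The exact intervals of these zero counts reach up to 15.4%, 24.7%, 26.5%, 9.03%, 6.16%, 21.8% and 18.5% of the lists, in that order, and each holds the 3.72%. In the neuroectoderm list 2 of 18 genes had one, namely Hes5, a target of Notch, with folds of 4.85 on day 4 and 4.75 on day 6 at 4975 bp from the gene, and Pax3, a paired-box factor, whose site inside the gene had 2.97 and 3.87. Gata4 was the 1 of 20 genes of mesoderm and endoderm, with 5.30 and 4.19, and Piwil2, a PIWI protein gene, the 1 of 20 germline genes, with 3.89 and 5.92.

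Among imprinted genes 3 of 33 had a gained site (9.09%, 1.92 to 24.3%). Usp29, of the Peg3 domain, had 5.72 on day 2, 7.03 on day 4 and 7.79 on day 6 (chr7:6958611-6958856). Snrpn, a spliceosome protein gene, had 6.81, 4.47 and 5.85. Rasgrf1, which encodes a Ras exchange factor, held 2 sites, with 4.61 and 3.38 on day 4 and 7.47 and 3.88 on day 6. Of 20 genes of CTCF and cohesin, 3 had one (15%, 3.21 to 37.9%). They were Nipbl, the cohesin loader (4.93 on day 4, 4.94 on day 6), Smc3, a core cohesin subunit (5.96 and 4.34), and Pds5b, a cohesin regulator (3.54 on day 2, then 5.19 and 2.91). Firre, an X-linked lncRNA gene with many CTCF sites, was the 1 of 12 X inactivation genes in the table (8.33%, 0.211 to 38.5%). It had 3.29 on day 4 and 4.49 on day 6. The intervals of the imprinted, the CTCF and cohesin and the X inactivation lists each hold the 3.72% of all protein-coding genes. Usp29, Snrpn, Rasgrf1, Nipbl, Smc3 and Pds5b are 45.4 to 468 kb long, against a median of 17.2 kb for all protein-coding genes. The shares of these lists were not compared at like gene length. The folds given for these lists lie below the gained sites' medians of 5.66 and 5.81 but for Usp29 on both days, Smc3 on day 4, and Rasgrf1, Piwil2 and Snrpn on day 6. A hairpin, that of Mir7234 (chr7:73819590-73819641), lay inside a gained site with folds of 5.71 and 3.88.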

How the data were processed

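The submitters' processing notes name MACS2 2.1.2, Bowtie2 2.3.4, SAMtools 1.9 and build mm10. The authors deposited 1 peak list per antibody and day, called on 3 pooled replicates. The lists hold the fold enrichment, a ratio deposited by the authors, the -log10 p deposited by the authors, and the -log10 q deposited by the authors, used as a peak score.

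Rows of 1 interval were taken as 1 peak, and peaks were merged at 1 bp overlap with Python 3.11.15 (numpy 2.4.6, pandas 2.3.3, scipy 1.17.1, matplotlib 3.10.9), tested on simulated data against bedtools 2.31.1. Fragments and background at summits were recovered from fold and p within 0.1%, and the background level is the only measure of depth used. Intervals are exact (Clopper-Pearson) 95% intervals over sites or genes that cover counting error only. They treat sites or genes as independent and hold no spread between replicates, which were pooled. For the fragment numbers, PCR fragments are not independent molecules. Genes come from RefSeq GRCm38.p6. With no genome, the motif was searched in whole promoter windows in place of summits.

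The sites named are those of highest day 6 fold (with and without a day 2 peak), of highest MBD3 fold, nearest to gene ends, in listed genes, in groups, and at the rule's edge, and the text gives part of them. The members, lists and named sites were chosen with earlier results of these data known. Alternatives were a stricter -log10 q, equal peak numbers, other overlaps and windows, and regions of high background left out.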

Additional observations from a re-analysis of the deposited data

How the results depend on the processing

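Of 103 alternative values, 64 stayed within the main value's interval or 1.5 times its count and 39 moved. The number of gained sites was 1578, and it was 1266 with a -log10 q of 10 or more in all lists (553 of the 1578 kept), 2316 with 28137 peaks per day (297 kept), 1577 with 50% overlap, 1754 with summits within 100 bp, 1517 with no day 0 peak within 1 kb and 1712 without high-background peaks (1570 kept). It was 553 with that -log10 q on days 4 and 6 and the day 0 list whole, an alternative added after seeing the data. By construction, removing day 0 peaks by -log10 q, number or background makes sites with a day 0 peak count as gained.

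The -log10 q of 10 gave a day 2 share of 15.8%, median folds of 7.28 on day 4 and 7.50 on day 6, MBD3 shares of 1.11%, 1.03%, 2.69% and 4.66% on days 0, 2, 4 and 6, and 53.0% inside a gene. With the day 0 list whole it gave 33.8% on day 2, folds of 7.36 and 7.60, MBD3 1.08%, 2.53% and 4.70% on days 2, 4 and 6, 52.8% inside a gene, 1.99% within 1 kb of a gene end and the exact motif in 0 promoters. Equal peak numbers gave 59.4% on day 2, folds of 8.13 and 8.70 and MBD3 1.17%, 3.76% and 6.95% on days 0, 4 and 6. The day 2 share was thus not low in that set, but the setting also changes which sites count as gained. Only 297 of the 1578 sites were in that set of 2316, so it cannot show whether the low share of the 1578 depends on list length. Summits within 100 bp gave 25.1% on day 2, MBD3 4.05%, 3.82% and 4.50% on days 0, 4 and 6, and 6.44% near a gene end. Leaving out high-background peaks of all lists gave folds of 5.80 and 5.94, MBD3 4.21%, 5.67% and 7.13%, and 4.73% near a gene end. Leaving out only the 8 gained sites gave MBD3 0.127% on day 0 and 0.191% on day 2. A 5 kb window gave 15.0% near a gene end, and 1 mismatch in the motif gave 55.6%. Beyond what the text states, the cause was not tested. In these settings the gained sites' MBD3 shares on days 4 and 6 were below the 14.7% and 18.7% of all merged sites under the main settings.

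No paired analysis was possible because the authors pooled the 3 replicates before calling peaks, which also leaves no replicate to omit. The planned 100 bp motif window was not run. Weak peaks had as few as 8 fragments, which limits calls near the threshold.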
